A study of Mus musculus with 22 samples.

Results

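Mdm4 is one of 6 genes described here, together with Mdm2, Trp53, Cdkn1a, Ccng1 and Bax, out of 20938 gene rows measured by RNA sequencing in 22 mouse lung libraries. All 6 were found by symbol, together with 5 transcript rows of Mdm4 out of 36844 transcript rows. Mdm4 was chosen by its own gene FPKM, which stood at separate high and low levels among libraries of the same group, so these levels are given as a description with no test. The other 5 genes are p53 itself, its main ubiquitin ligase and 3 of its target genes.

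Trp53 encodes p53, a transcription factor that is kept low in unstressed cells and acts after DNA damage and other stress. Mdm2 is the ubiquitin ligase that marks p53 for degradation, and Mdm4 (also called Mdmx) is its partner, which binds p53 and blocks its activity without being an efficient ligase on its own. Among the genes that p53 switches on are Cdkn1a, which encodes the cell cycle inhibitor p21, Ccng1, which encodes cyclin G1, Bax, which encodes a pore-forming protein of apoptosis, and Mdm2 itself, which closes a negative feedback loop. The Mdm4 transcript is subject to regulated splicing, in which an exon is skipped and little full-length protein is made.

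The animals were BALB/c mice, given an intraperitoneal sensitizing injection when 49 days old and a booster when 63 days old, and exposed to an aerosol from the age of 70 days. The aerosol was phosphate-buffered saline (PBS, the control), methacholine (MCh), an agonist of muscarinic acetylcholine receptors that constricts the airways, or ovalbumin (OVA), an egg-white protein used as an allergen, and it was given either on 3 consecutive days (short) or 3 times a week for 4 weeks (long). Each protocol had 3 libraries for PBS and 4 each for MCh and OVA, 1 for each biological replicate, and the treatment labels describe sensitization in every group, controls included. The sample titles call the PBS and MCh mice normal and the OVA mice asthmatic (allergic asthma). They also give 4 days for short MCh, and the series design names trachea where each sample is labelled lung. PBS, short MCh and short OVA libraries are called by the number in their labels, whereas a long MCh or long OVA library could be matched with its group but not its number and is called by a letter, a to d.

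The values are FPKM, fragments scaled to transcript length and to all mapped fragments, so totals do not show depth, and at most 34.0% to 48.1% of low values by library came out within 0.05 of a whole read at any depth tried. The surfactant gene Sftpc had at least 4592 FPKM in every library, and the cartilage genes Acan, Col2a1, Cnmd and Matn1 stayed under 0.492 FPKM. Short MCh library 1 and long MCh libraries a and c held 28.3%, 34.3% and 33.8% of genes at 0, against 22.5% to 25.3% in the other 19 libraries, and are called sparse. The rank correlation across genes between transcript length and a library's deviation from the mean of all libraries was -0.48 to -0.40 in short OVA. It was -0.65 for library 4 of short MCh, and -0.03 to 0.47 for the remaining libraries. In whole tissue, fewer cells of a type and less RNA per cell cannot be told apart.

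The start regions of the 6 genes were compared first, because 5 of them are textbook p53 targets or p53 itself. The p53 half-site, a motif of 10 bases, was searched on both strands in the 250 bases before each RefSeq start of build GRCm38.p6, and 7.13% of all 32851 such windows held at least 1 match. None was found in either of the 2 windows of Mdm4, and the one at chr1:133025417-133025666 (minus strand) is printed whole. Each of the other 5 genes had a window with a match, printed as 60 bases around it, 5′ to 3′, with the half-site in capitals. They lie at chr10:117710910-117710969 (minus strand) for Mdm2, chr11:69580259-69580318 (plus) for Trp53, chr17:29090894-29090953 (plus) for Cdkn1a, chr11:40755437-40755496 (minus) for Ccng1 and chr7:45467065-45467124 (minus) for Bax.
Mdm4: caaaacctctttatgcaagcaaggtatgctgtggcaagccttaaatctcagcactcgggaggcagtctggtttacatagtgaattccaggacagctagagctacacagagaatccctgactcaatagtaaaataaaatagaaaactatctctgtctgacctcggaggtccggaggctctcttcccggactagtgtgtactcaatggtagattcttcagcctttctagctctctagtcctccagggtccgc
Mdm2: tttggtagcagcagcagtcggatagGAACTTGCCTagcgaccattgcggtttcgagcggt
Trp53: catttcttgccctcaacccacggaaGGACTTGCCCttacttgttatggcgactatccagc
Cdkn1a: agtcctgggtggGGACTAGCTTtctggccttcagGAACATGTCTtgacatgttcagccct
Ccng1: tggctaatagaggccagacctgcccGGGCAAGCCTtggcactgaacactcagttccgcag
Bax: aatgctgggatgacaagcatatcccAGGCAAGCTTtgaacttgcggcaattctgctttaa
Cdkn1a had 2 matches in its first window, 73 and 51 bases before the start, and 0 in the window of its second start. A match describes letters in a window and not a bound site.

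Mdm4 (chr1:132959484-133030561, minus strand) ranged from 8.64 to 139 FPKM over the 22 libraries, a 16.1-fold range. No library lay between 32.2 and 99.3 FPKM. On one side of this 3.08-fold step were 11 libraries at 8.64 to 32.2 FPKM, and on the other 11 libraries at 99.3 to 139 FPKM. The next largest step between neighbouring libraries was 1.38-fold. The upper values were the tighter, spanning 1.40-fold against 3.73-fold for the lower ones.

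The step ran through groups and not only between them. In short PBS the 3 libraries had 99.3, 125 and 122 FPKM. In long PBS the values were 19.4, 23.3 and 139 FPKM. All short PBS libraries were thus high, whereas 1 of 3 long PBS libraries was high.

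In short MCh, libraries 1 to 4 had 15.7, 110, 111 and 10.5 FPKM. In long MCh, libraries a to d had 8.64, 133, 13.5 and 125 FPKM. Each MCh group was split into 2 low and 2 high libraries with no value between.

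In short OVA the 4 libraries had 9.40, 15.9, 18.6 and 11.2 FPKM, all low. In long OVA, libraries a to d had 32.2, 127, 126 and 131 FPKM, so 1 was low and 3 were high. The order of the group means was 115 ± 13.8 FPKM (SD, n = 3) in short PBS, 104 ± 48.1 (SD, n = 4) in long OVA, 69.9 ± 68.0 (SD, n = 4) in long MCh, 61.9 ± 56.4 (SD, n = 4) in short MCh, 60.6 ± 68.0 (SD, n = 3) in long PBS and 13.8 ± 4.22 (SD, n = 4) in short OVA. Neighbours in this order overlapped in range from short PBS down to long PBS, and only the last step, to short OVA (highest 18.6) from long PBS (lowest 19.4), had none. Short OVA also overlapped with both MCh groups.

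**Figure D1:**
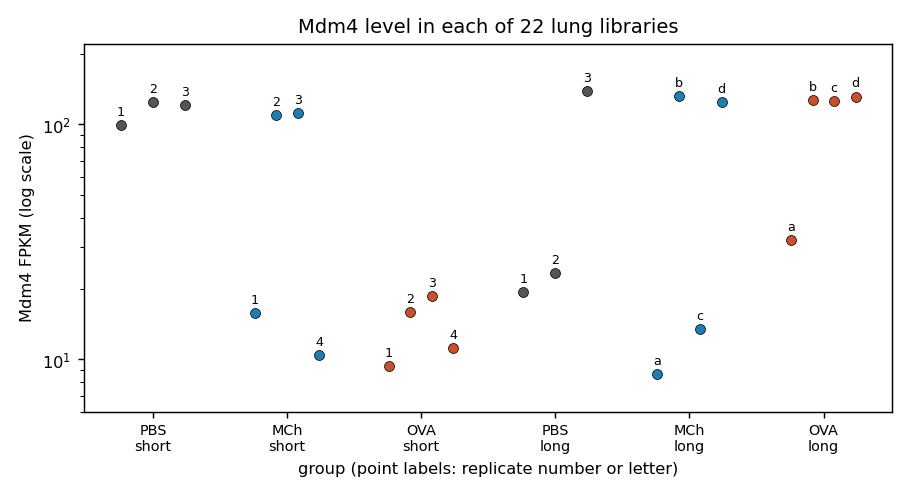
Mdm4 gene FPKM on a log axis, with 1 point for each library in the 6 groups, labelled by replicate number or letter. Libraries fall at 8.64 to 32.2 or at 99.3 to 139 FPKM, and 4 of the 6 groups hold both kinds.

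Measured on log2(FPKM + 0.5), the widest gap between neighbouring libraries was 2.55 in long PBS, 2.77 in short MCh and 3.16 in long MCh. It was 1.95 in long OVA, just inside the 4-fold (log2 of 2) mark used below, and 0.29 and 0.49 in short PBS and short OVA.

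Library measures did not run in step with these levels in every group. In long PBS, libraries 1, 2 and 3 had nearly equal shares of genes at 0 (24.1%, 22.5% and 22.9%) and nearly equal correlations with length (0.42, 0.37 and 0.42), while Mdm4 differed 5.87-fold between libraries 2 and 3 on the scale with the added 0.5. In both MCh groups the low libraries were the ones that stood apart. Short MCh library 1 was sparse and library 4 had the length correlation of -0.65, and long MCh libraries a and c were the other sparse ones, against 23.0% to 23.4% of genes at 0 in libraries 2, 3, b and d. Short OVA, all low, had the length correlations of -0.48 to -0.40. In long OVA the low library a had 23.4% of genes at 0 and a length correlation of 0.28, against 22.6% to 25.3% and 0.30 to 0.38 in the other 3. Their part in the Mdm4 levels was not tested.

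Heart muscle, which can be taken along with lung, was checked with 7 marker genes (Myh6, Actc1, Tnnt2, Tnni3, Nppa, Ryr2 and Myl7), none of them at 0 in any library. Their summed level ran from 36.9 to 609 FPKM. In long PBS it was 36.9, 61.6 and 225 FPKM in libraries 1 to 3, and in short MCh it was 609, 389, 149 and 48.7 FPKM in libraries 1 to 4. The Mdm4-high library thus had the most heart RNA in long PBS, whereas in short MCh the 2 Mdm4-low libraries had the most and the least. In long MCh the sum was 130, 107, 351 and 49.2 FPKM in libraries a to d, so the Mdm4-low libraries a and c had the most. In long OVA it was 99.5, 37.3, 99.7 and 139 FPKM, with the Mdm4-low library a inside the range of the others. The part of heart muscle in the Mdm4 levels was not tested.

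Markers of dividing cells (Mki67, Top2a, Cdk1 and Birc5, the last at 0 in 1 library) went with low Mdm4 in some groups and not in others. Their sum was 21.9, 19.0 and 10.9 FPKM in long PBS libraries 1 to 3, and 33.6, 14.8, 18.7 and 20.1 FPKM in long OVA libraries a to d, so the Mdm4-low libraries were the highest in both groups. It was 50.3 to 62.1 FPKM in short OVA, where all are Mdm4-low, and 7.33 to 23.1 FPKM in short PBS, where all are Mdm4-high. In short MCh it was 34.7, 9.90, 7.45 and 8.75 FPKM in libraries 1 to 4, and in long MCh 10.8, 10.3, 7.55 and 13.7 FPKM in libraries a to d, where the Mdm4-low libraries 4, a and c lay within or below the range of the Mdm4-high ones. The part of dividing cells in the Mdm4 levels was not tested.

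The transcript rows carried the same step. Mdm4 transcript FPKM summed to 1.97 to 7.42 in the 11 libraries with low gene values and to 22.9 to 32.1 in the other 11. NM_001302803 and NM_001302801 made up most of it, with median shares of 43.4% and 39.5%, NM_001302804 had a median share of 14.8%, and NM_001302802 was listed at 0 in all 22 libraries. In long PBS, for example, NM_001302803 had 2.09, 2.47 and 14.3 FPKM and NM_001302801 had 2.11, 2.08 and 12.4 FPKM in libraries 1 to 3. Both rows were low in libraries 1 and 2, while the third row, NM_001302804, made up 5.80%, 15.0% and 16.8% of the sum.

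The mix varied between libraries. The share of NM_001302804 ran from 0% in short PBS library 1, short MCh library 1 and short OVA library 3, as well as in long MCh libraries a and c, to 29.1% in short OVA library 1. Short PBS library 1 is Mdm4-high and the other 4 at 0% are Mdm4-low. NM_008575 was the only Mdm4 row above 0 in long MCh library a, with 1.97 FPKM, and it made up 59.6% of the sum in long MCh library c, with 1.84 FPKM. In the other 20 libraries it was at most 0.0403 FPKM. Libraries a and c are both sparse, and in long MCh libraries b and d it was listed at 0. Reads shared between transcripts are divided by an estimate, so a row at 0 can be an estimate that failed.

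**Figure D2:**
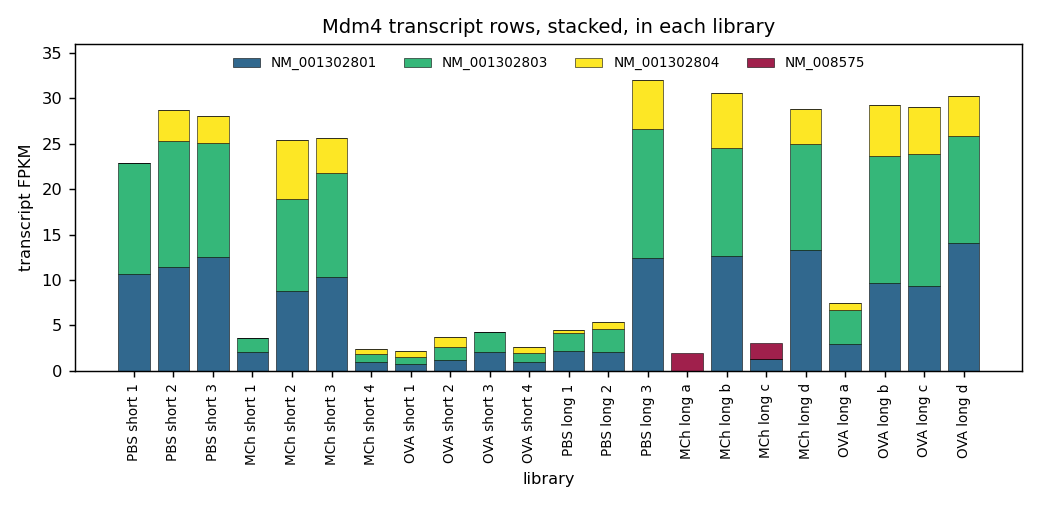
FPKM of the 4 Mdm4 transcript rows with values above 0, stacked, in each of the 22 libraries. The sums fall at 1.97 to 7.42 or at 22.9 to 32.1 FPKM, and NM_008575 is visible in long MCh libraries a and c alone.

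RefSeq lists 1 non-coding transcript of Mdm4 beside the coding ones, which was not analysed here, so its part in the gene's reads is not known. Mdm4 also has a processed copy, Mdm4-ps, on chromosome X. Stretches of 4187 and 2020 bases of the longest coding Mdm4 transcript of GENCODE (7105 bases) aligned to it at 94.1% and 94.9% identity, and 15.5% of the 50-base windows of that transcript occur in it without a mismatch. How the authors' counting placed reads from such windows is not given in the sources used here, so this share of Mdm4 reads is uncertain.

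Levels can be compared between these genes on the transcript scale only. The deposited gene value was a fixed weighted sum of the transcript rows, with weights that fit a gene length far from the transcript lengths. Mdm4 gene values were 4.34 times the transcript sum, where the weights fit lengths of 1664 bases for the gene and 7194 to 7298 for the transcripts, while the ratio was 0.172 for Mdm2 and 0.219 for Bax. On summed transcript FPKM the means over 22 libraries were 61.4 for Cdkn1a, 51.3 for Ccng1, 43.8 for Bax, 22.7 for Mdm2, 19.4 for Trp53 and 16.0 for Mdm4. By this mean Mdm4 was the lowest of the 6 per length, although its mean gene FPKM of 69.4 was the second highest. The mean covers both levels of Mdm4. Its sum was 22.9 to 32.1 FPKM in the Mdm4-high libraries, above that of Trp53 in each. In the Mdm4-low libraries it was 1.97 to 7.42 FPKM, below that of Trp53 in each. The ratio of both scales varied over libraries by at most 0.517% (coefficient of variation) for the 6 genes, so one gene's libraries compare alike on either.

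Across genes, gaps as wide as those of Mdm4 inside several groups were rare. Of 12773 genes with a mean of at least 1 FPKM, 37 had a gap of at least 4-fold inside 3 or more groups, Mdm4 with 3 groups among them, and 26 of the 37 were above 0 in every library. Mdm2, Trp53, Cdkn1a, Ccng1 and Bax had such a gap in 0 groups. The genes with the most such groups were Gm45935, H3c14, Oas1a and Car3 with 6 each, and H2-Q6 with 5. Such a gap need not part 2 levels over all libraries. Car3 ran from 0.227 to 87.2 FPKM with values between, and Gm45935 was at 0 in 12 libraries. Oas1a is an interferon-induced enzyme, Car3 a carbonic anhydrase of fat and muscle, H3c14 a histone H3 gene and H2-Q6 a class Ib histocompatibility gene, and histone and histocompatibility genes have near-identical copies that can share reads. A non-coding RefSeq transcript was listed for 8.33% of the 36 such genes with a record, Mdm4 included, and for 7.92% of 12682 genes with a record.

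The gene order most like that of Mdm4 over the 22 libraries was found by Spearman's rho, as a description, since the points share groups and library properties. Fgd4, an activator of the small GTPase Cdc42, had a rho of 0.91. It was 0.88 for Mapk1ip1l, Ogfod1 (an oxygenase that modifies a ribosomal protein), Dido1 and Rims3 (a synaptic protein). With the group means removed, Pearson's r for the 5 genes was 0.67, 0.72, 0.84, 0.74 and 0.76. None of them made the step of Mdm4: Mapk1ip1l ranged 1.87-fold, Ogfod1 2.12-fold, Dido1 3.13-fold and Fgd4 4.43-fold from the lowest to the highest library. Rims3 ranged 17.1-fold, but from 0.127 to 2.16 FPKM and with values between. The longest coding transcripts of the 5 genes have 4542 to 8723 bases, and that of Mdm4 has 7105.

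**Figure D3:**
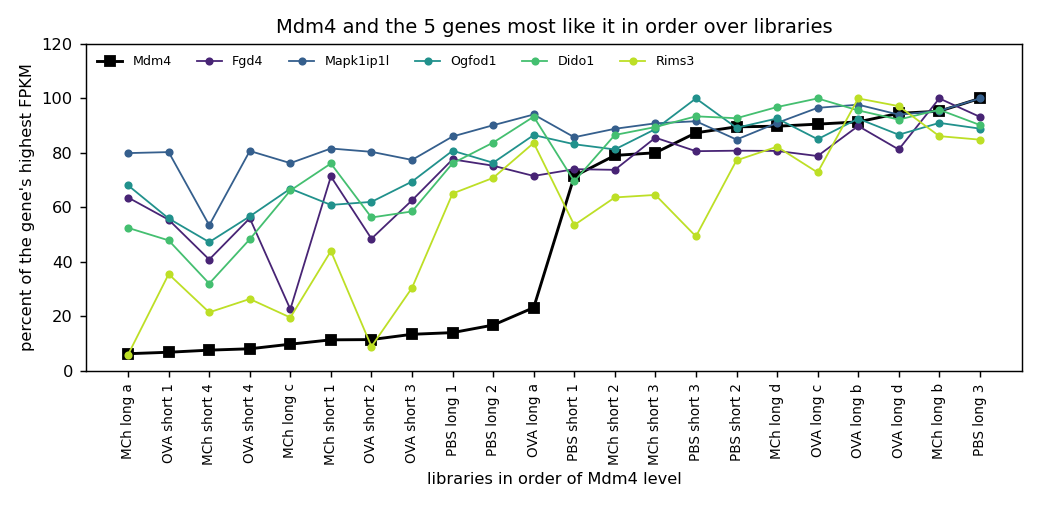
Mdm4 and the 5 genes most like it, each as a percent of its highest FPKM, with the 22 libraries in order of Mdm4 level. The Mdm4 line jumps between 32.2 and 99.3 FPKM, and the other lines climb with no such jump.

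The genes beside Mdm4 on chromosome 1 did not share its levels. Nfasc and Lrrn2 on one side were hardly detected, with at most 0.123 and 0.504 FPKM. Pik3c2b, a lipid kinase, ranged from 2.66 to 9.24 FPKM with a rho of 0.26 to Mdm4, and Ppp1r15b, a regulator of the eIF2 alpha phosphatase, from 11.8 to 24.8 FPKM with a rho of -0.14. Neither had a 4-fold gap in any group. For the p53 axis the rho to Mdm4 was 0.51 for Mdm2, 0.03 for Trp53, -0.50 for Cdkn1a, -0.21 for Ccng1 and -0.40 for Bax.

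Trp53 stood at a similar level in most libraries. It had 6.96, 8.11 and 7.37 FPKM in short PBS, and 8.74, 9.74, 8.25 and 9.43 in short OVA, with no overlap. It had 8.15, 9.20 and 8.66 FPKM in long PBS, and 9.13, 8.44, 8.28 and 9.43 in long OVA. Short MCh libraries had 7.10, 6.90, 6.93 and 5.98 FPKM, and those of long MCh had 3.94, 6.89, 9.01 and 8.71. The lowest value belonged to the sparse long MCh library a, and apart from it Trp53 ranged from 5.98 to 9.74 FPKM.

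Mdm2 had a pattern of its own in the long protocol, where 1 library of each group was low. Its values were 4.09, 1.77 and 4.43 FPKM in long PBS, 3.51, 4.55, 2.18 and 4.62 in long MCh and 4.87, 4.61, 4.92 and 1.95 in long OVA. In the short protocol all 11 libraries lay between 3.40 and 4.58 FPKM. Of the 3 Mdm2-low libraries, long PBS library 2 and long MCh library c were also low for Mdm4, and long OVA library d was not.

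The low Mdm2 values came from one transcript row. NM_010786 had 7.74, 12.6 and 7.65 FPKM in long PBS library 2, long MCh library c and long OVA library d, against 18.9 to 26.4 FPKM in the other 19 libraries. The shorter row NM_001288586 had 2.60, 0 and 3.72 FPKM there, inside its range of 0 to 6.53 FPKM elsewhere. Their gene-level gaps stayed under 4-fold.

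Cdkn1a had 44.7, 50.7 and 50.8 FPKM in short PBS and 62.4, 73.7, 60.3 and 88.3 in short MCh, so every short MCh library lay above every short PBS library. In short OVA it had 59.4, 50.3, 40.8 and 45.7 FPKM, on both sides of the PBS values. In the long protocol it had 40.7, 34.1 and 21.6 FPKM in PBS, 100, 43.0, 33.6 and 55.7 in MCh, and 25.6, 29.0, 33.0 and 30.8 in OVA. The highest of all 22 libraries was long MCh library a, one of the sparse ones.

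Ccng1 was the steadiest of the 6, at 57.7 to 97.3 FPKM. It had 63.2, 70.0 and 63.9 FPKM in short PBS and 79.2, 79.9, 83.9 and 75.9 in short OVA, and 68.0, 59.9 and 69.3 in long PBS against 79.6, 82.3, 74.3 and 69.4 in long OVA. OVA libraries lay above PBS libraries of the same protocol throughout, by a narrow margin in the long one. Short MCh libraries had 61.6 to 70.9 FPKM and long MCh libraries 57.7 to 97.3, the top value again in library a.

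Bax had 9.52, 9.53 and 9.23 FPKM in short PBS and 14.9, 13.1, 13.2 and 12.7 in short OVA. In short MCh it had 8.59, 8.62, 8.29 and 15.6 FPKM, and the last of these is the highest of all 22. In the long protocol it had 7.03 to 8.43 FPKM in PBS, 6.72 to 8.84 in MCh and 7.34 to 9.20 in OVA, which overlap. The 5 libraries with 12.7 FPKM or more are the 5 libraries with a length correlation of -0.65 to -0.40, and Bax has the shortest transcript of the 6 genes, at 1100 bases. The test of Bax is given with the length trend as deposited and with it removed from each library.

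**Figure D4:**
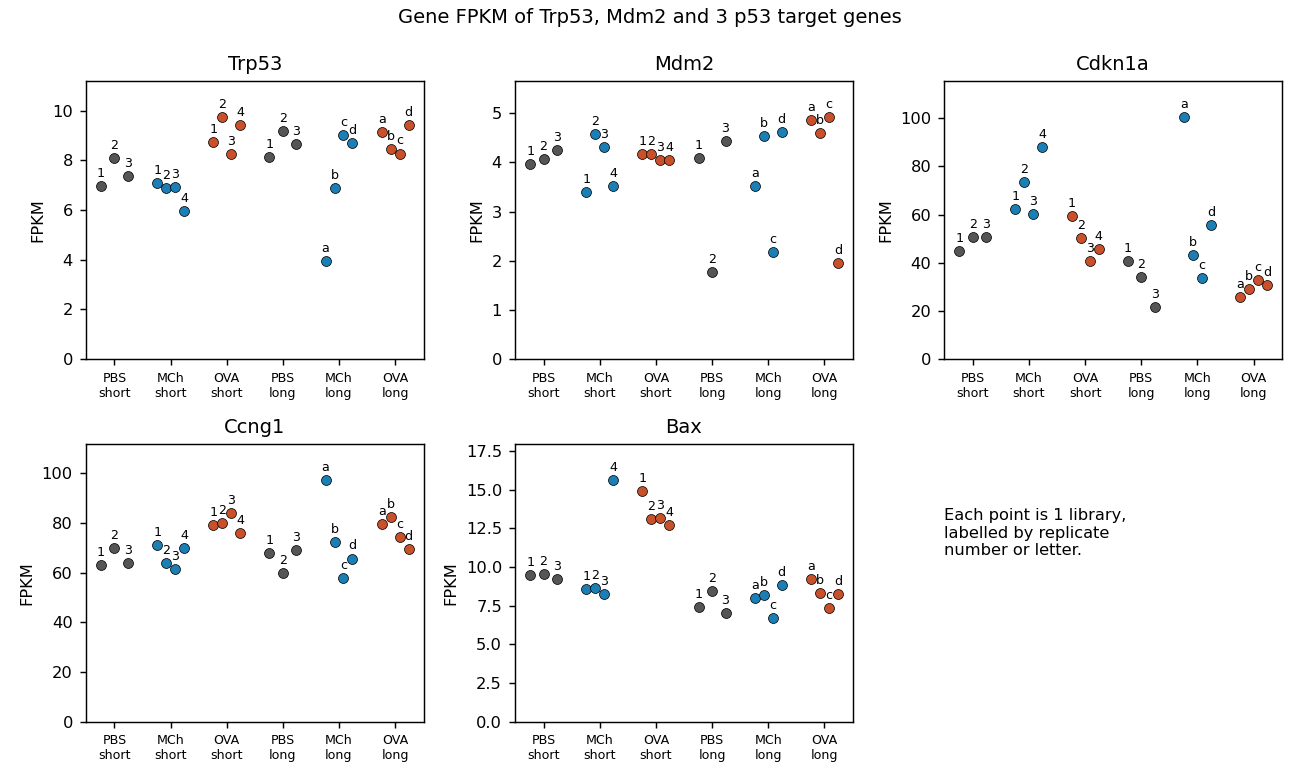
Gene FPKM of Trp53, Mdm2, Cdkn1a, Ccng1 and Bax from 0 upward, 1 point for each library, labelled by replicate number or letter. Mdm2 has 1 low library in each long group (1.77, 2.18 and 1.95 FPKM), and Bax is highest in the 4 short OVA libraries and short MCh library 4 (12.7 to 15.6 FPKM).

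The 5 genes other than Mdm4 were tested with limma on log2(FPKM + 0.5), with Benjamini-Hochberg adjustment over all 15682 genes tested and a call at an adjusted p under 0.05. For OVA vs PBS in the short protocol 1 of the 5 was called, where 24.2% of all genes were called, so the share is near the background. Bax rose by 0.49 ± 0.17 (log2, SE), 1.41-fold, with an adjusted p of 0.041. For Ccng1 the difference was 0.28 ± 0.13 (adjusted p = 0.116) and for Trp53 0.26 ± 0.19 (adjusted p = 0.348). The groups of Bax, Ccng1 and Trp53 did not overlap. How often groups separate over all genes was not counted, so this and the other separations given have no background beside them. Cdkn1a and Mdm2 had adjusted p of 0.997 and 0.994. Separations were also seen between the control groups: long PBS lay wholly above short PBS for Trp53 and wholly below it for Cdkn1a and Bax.

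The Bax call did not hold in every fit. It ended with the length trend removed, at 0.17 ± 0.11 (adjusted p = 0.301), and when any of the 7 libraries compared was left out (adjusted p 0.0562 to 0.124) or long PBS library 1, long OVA library b or d (0.0502 to 0.0512). Without short MCh library 4 its adjusted p was 0.00153, and Ccng1 passed without the sparse long MCh library a (adjusted p = 0.0257).

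In the other comparisons limma called 0 of the 5. For OVA vs PBS long (1.18% of all genes called) and MCh vs PBS short (0.00638% called), 0 of the 5 had an unadjusted p under 0.05 either. For MCh vs PBS long (0.0638% called) and PBS long vs short (0.166% called) 1 of 5 did, Cdkn1a in both. Of all 15682 genes tested, 2551 had an unadjusted p under 0.05 in MCh vs PBS long and 854 in PBS long vs short. For Cdkn1a the difference was 0.77 ± 0.26 in MCh vs PBS long (adjusted p = 0.218) and 0.47 without long MCh library a (adjusted p = 0.402). It was 0.53 ± 0.26 in MCh vs PBS short (adjusted p = 0.681), where the groups do not overlap. MCh and OVA groups share the PBS libraries of their protocol. In PBS long vs short the Cdkn1a difference was -0.64 ± 0.28 (adjusted p = 0.843). The OVA effect in the long against the short protocol, the difference of both differences, had 0 of 5 called and 0 with an unadjusted p under 0.05 (1.88% of all genes called), with -0.38 ± 0.24 for Bax (adjusted p = 0.477).

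The rest of the p53 pathway was read from a list of 62 further genes, all of which passed the filter on low values. In OVA vs PBS short 11 rose, 14 fell and 37 did not pass, with a median log2 fold change of -0.13 against -0.06 for all genes tested. The shares of all genes called were 12.4% higher and 11.7% lower. Beside these counts the libraries differed in other ways: all 4 markers of dividing cells (Mki67, Top2a, Cdk1 and Birc5) were higher in every short OVA than every short PBS library, with sums of 50.3 to 62.1 against 7.33 to 23.1 FPKM. Of 4 eosinophil markers (Epx, Prg2, Siglecf and Ccr3) 3 were, with sums of 10.6 to 22.7 against 6.22 to 7.52 FPKM. Of 4 alveolar type 2 markers (Sftpc, Sftpa1, Sftpb and Lamp3) 3 were higher and 1 lower in every short OVA library, with sums of 17071 to 18649 against 11920 to 13992 FPKM. Markers lower in every short OVA library were 3 of 4 for alveolar type 1 cells (sums of 952 to 1203 against 1118 to 1544 FPKM), 2 of 4 for endothelium (1147 to 1393 against 1370 to 1719 FPKM), 1 of 4 for leukocytes (2864 to 3794 against 3875 to 4872 FPKM), 1 of 3 for club cells (34502 to 46625 against 41780 to 49877 FPKM) and 2 of 7 for heart muscle (53.2 to 212 against 116 to 440 FPKM). Of all these markers 1, an eosinophil gene, was at 0 in a short PBS library, and 0 were in short OVA. The share of all genes that separate in this way was not counted, so the marker counts have no background beside them. The part of these markers in the list's calls was not tested.

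Among the regulators of p53, 1 of 13 kinases and cofactors rose and 6 fell, where 12.4% of all genes were called higher and 11.7% lower. Ppp1r13b, which encodes ASPP1, a cofactor that directs p53 to apoptosis genes, had 161 to 191 FPKM in short PBS and 82.5 to 90.0 in short OVA. It fell by 1.03 ± 0.15 on the log2 scale (limma, adjusted p = 4.89e-05), the smallest adjusted p of the list. Of 8 further inhibitors and ubiquitin pathway genes 0 rose and 2 fell, and of the 3 ribosomal proteins that bind and inhibit Mdm2, 2 rose. Neither of the p53 relatives Trp63 and Trp73 passed. With the length trend removed, Crebbp (10820 bases) and Huwe1 (14579 bases), which had fallen, lost their calls (limma, adjusted p = 0.0807 and 0.0527). The other regulators called kept theirs.

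Of 9 further target genes of cell cycle arrest 4 rose and 0 fell, beside 12.4% and 11.7% of all genes. Gtse1, which is expressed in G2 and S phase and holds p53 in the cytoplasm, had 0.79 to 1.58 FPKM in short PBS and 4.95 to 6.27 in short OVA. It rose by 1.91 ± 0.41 on the log2 scale (limma, adjusted p = 0.00201). Psrc1, a spindle protein, rose by 1.11 ± 0.28 (adjusted p = 0.00684; 1.53 ± 0.57 and 0.0615 with 0.1 in place of 0.5 added), and Plk3, a stress-activated kinase, by 0.57 ± 0.14 (adjusted p = 0.00577). Gtse1 and Psrc1 act in dividing cells, whose markers differed between these libraries as given.

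Of 12 further apoptosis targets 1 rose and 1 fell, and of 11 targets of repair and metabolism 0 rose and 5 fell. Ddit4, an inhibitor of the growth kinase mTOR, had 12.8 to 28.6 FPKM in short PBS and 5.70 to 7.25 in short OVA and fell by 1.37 ± 0.28 (log2, limma adjusted p = 0.00151). Sesn1, a stress protein that also restrains mTOR, had 27.0 to 43.8 and 16.4 to 22.4 FPKM and fell by 0.81 ± 0.15 (adjusted p = 0.000646). Neither pair of groups overlapped. Target genes of p53 thus moved in both directions, as did all genes tested (12.4% higher and 11.7% lower), so movement both ways does not set them apart. By class they differed: 4 of 9 arrest targets rose and 0 fell, while 5 of 11 repair and metabolism targets fell and 0 rose. Of the 12 apoptosis targets 1 moved each way. Whether these small class counts depart from the shares of all genes was not tested.

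Trp53inp1, a p53-induced nuclear protein of apoptosis and autophagy, had 93.6 to 168 FPKM in short PBS and 48.7 to 74.0 in short OVA, and fell by 1.09 ± 0.20 (log2, limma adjusted p = 0.000651). In the long protocol it had 74.3 to 102 FPKM in PBS and 104 to 160 in OVA, a difference of 0.50 ± 0.20 (adjusted p = 0.46). It was the only one of the 62 called for the OVA effect in the long against the short protocol, at 1.59 ± 0.29 (adjusted p = 0.00497), and 1.88% of all genes were called, so 1 of 62 is near the background. That count rose to 12 without short MCh library 4 and to 2 without long MCh library a or c. The share of all genes called in those fits is not given here.

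The 5 listed genes that bear on Mdm4 splicing were Prmt5, Srsf3, Rpl22, Rpl22l1 and Zmat3, the last counted above among the arrest targets. In OVA vs PBS short 3 of the 4 others rose, where 12.4% of all genes were called higher. Rpl22l1, a paralog of the ribosomal protein Rpl22, had 51.8 to 59.6 FPKM in short PBS and 110 to 166 in short OVA and rose by 1.19 ± 0.23 (log2, limma adjusted p = 0.000891). Srsf3, a splicing factor, rose by 0.49 ± 0.14 (adjusted p = 0.0184; 0.0698 without short PBS library 3). Rpl22 rose by 0.58 ± 0.17 (adjusted p = 0.0204), and lost its call without short PBS library 2 or 3 or short OVA library 1 (0.0545 to 0.103). For Prmt5, the arginine methyltransferase of the spliceosome, the difference was 0.21 ± 0.18 (adjusted p = 0.443) and for Zmat3 -0.28 ± 0.28 (adjusted p = 0.511). Ribosomal protein genes have many processed copies that can share their reads. In long PBS, where Mdm4 was 19.4, 23.3 and 139 FPKM, Rpl22l1 was 53.8, 40.9 and 41.0 FPKM in libraries 1 to 3. In short MCh, with libraries 1 and 4 Mdm4-low, Rpl22l1 was 68.4, 62.1, 44.8 and 109 FPKM in libraries 1 to 4. In long MCh, with a and c Mdm4-low, it was 25.5, 47.9, 40.3 and 39.7 FPKM in libraries a to d. In long OVA, with a Mdm4-low, it was 56.5, 43.4, 50.2 and 51.9 FPKM. Srsf3, in the same library order, was 94.8, 84.4 and 88.2 FPKM in long PBS and 144, 121, 118 and 168 in short MCh. It was 166, 104, 106 and 96.0 FPKM in long MCh and 112.3, 106.3, 110.9 and 111.7 in long OVA. The Mdm4-low libraries thus had the highest Srsf3 in both MCh groups and, narrowly, in long OVA, but lay on both sides of the Mdm4-high one in long PBS. The part of Rpl22l1 and Srsf3 in the Mdm4 levels was not tested.

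The calls of the list were spread unevenly over transcript length. The 11 genes that rose had a median length of 2051 bases (552 to 3797) and the 14 that fell of 4375 bases (1755 to 15261). With the length trend of each library removed, 10 of the 11 and 10 of the 14 were still called in the same direction. Rpl22l1, at 552 bases the shortest, went from 1.19 to 0.67 (adjusted p = 0.00583), while Gtse1 was at 1.90 (adjusted p = 0.00199) and Ddit4 at -1.51 (adjusted p = 0.00048). The count of 25 called went to 12 without short PBS library 3 and to 16 without short PBS library 2 or short OVA library 1.

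**Figure D5:**
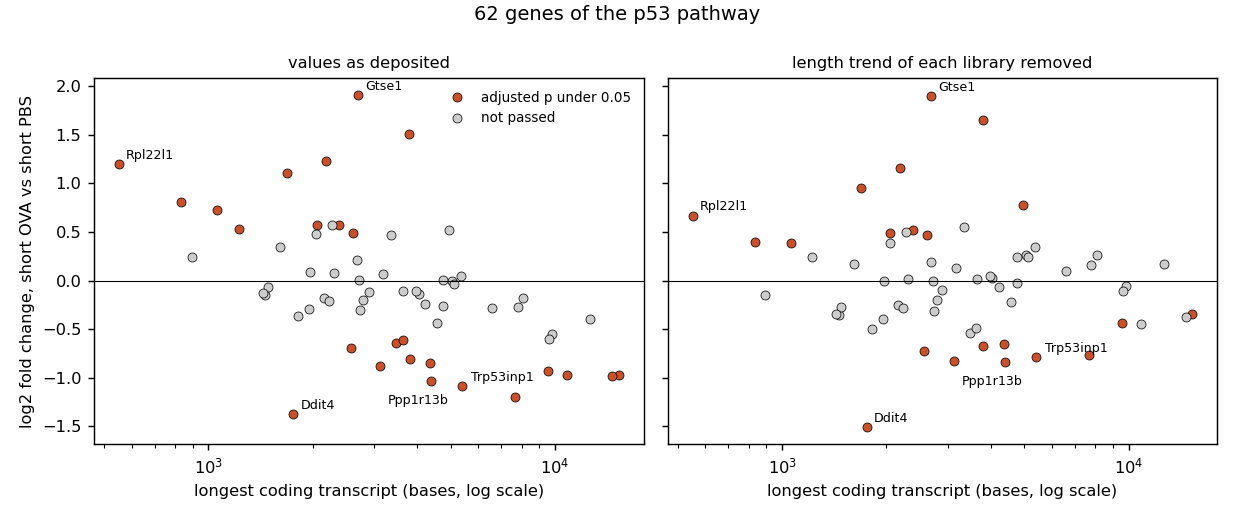
Log2 fold change of 62 p53 pathway genes in OVA vs PBS short against transcript length on a log axis, as deposited and with each library's length trend removed. Coloured points passed an adjusted p under 0.05, 25 genes on the left (11 higher, 14 lower) and 21 on the right (11 higher, 10 lower).

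In the other comparisons limma called 0 of the 62. At an unadjusted p under 0.05 there were 5 in OVA vs PBS long, 3 in MCh vs PBS short, 11 in MCh vs PBS long and 5 in PBS long vs short. Of all 15682 genes tested, 1164, 1175, 2551 and 854 had such a p, in the same order. The medians over the 62 genes were 0.02, -0.05, -0.07 and 0.02 on the log2 scale, beside -0.02, -0.05, -0.14 and 0.05 over all genes tested. Leaving out 1 library gave at most 1 call in OVA vs PBS long (without short MCh library 4, or long MCh library a or c) and in PBS long vs short (without long MCh library c), and 2 in MCh vs PBS long (without long MCh library d).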

How the data were processed

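RNA from 22 lung libraries was measured. The authors deposited FPKM for 20938 genes and 36844 transcripts. Trim Galore, STAR, DESeq2 and mm10 are named, per the submitters' processing notes, while the sources used here give no versions, annotation or program behind FPKM. RNA was extracted with RNeasy kits and libraries were built with a stranded total RNA kit, per the labels' protocols.

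Genes with at least 0.1 FPKM in at least 3 libraries (15682) were fitted on log2(FPKM + 0.5) with limma 3.58.1 in R 4.3.3, with 1 coefficient for each of 6 groups and an intensity trend. A fold change on this scale understates the change of low genes. Benjamini-Hochberg adjustment ran over all genes in each of 6 contrasts, two-sided. The fit was tested before use on simulated data, with independent noise of equal spread in all libraries. Of changes of 1 on the log2 scale it recovered 63% in OVA vs PBS short and 61% in MCh vs PBS short. Of changes of 2 it recovered 95% and 97%. The simulation held no sparse libraries or length trends, so it cannot show how the fit does with them. No 2 libraries had identical values.

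The genes and lists were chosen with earlier results of these data known. Named were the 6 genes, up to 8 called pathway genes with the smallest adjusted p in OVA vs PBS short and up to 4 in each other contrast, the splicing list, the 5 genes most like Mdm4, the 5 with most split groups and the 2 neighbours on each side. Of the marker lists, those for cartilage and thyroid had 0 genes separated between short OVA and short PBS, and thyroid markers summed to at most 1.03 FPKM in any library. Gene coordinates are from GENCODE vM21 (GRCm38), start regions from RefSeq (GRCm38.p6). Alternatives were other pseudocounts, filters and scalings, array weights, fewer groups or libraries, summed transcripts, a removed length trend and a replicate block.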

Additional observations from a re-analysis of the deposited data

Results flagged for a closer look

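In long OVA, Mdm4 was 32.2 FPKM in library a, far from the other 3 libraries at 126 to 131. Mdm2 was 1.95 FPKM in long OVA library d, far from the others at 4.61 to 4.92. Library 4 of short MCh had 15.6 FPKM of Bax, and the other 3 had 8.29 to 8.62. Chance sets 1 library apart in about 1 in 20 groups. For Mdm4, which was chosen by such splits, this rate says nothing and the value is a description. Short MCh library 4 also had the length correlation of -0.65, the lowest of the 22 libraries. The OVA effect on Trp53inp1 differed between the protocols by 1.59 on the log2 scale, by the interaction term of limma.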

How the results depend on the processing

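Leaving out single libraries apart, 127 counts under alternatives stayed within 1.5 times the main count and 22 did not. Among the single gene differences followed under the alternatives, no direction reversed. Other pathway genes did reverse in OVA vs PBS short with the length trend removed. Zmat3, for example, went from -0.28 to 0.16 on the log2 scale and was called in neither fit. For the 5 genes in OVA vs PBS short (1 called), 3 were called with array weights and without the 3 sparse libraries, 2 in a fit of the contrast's own groups, 0 with the length trend removed, and 0 to 2 with 1 library left out. With array weights 2 were called in PBS long vs short and 1 for the OVA effect in the long against the short protocol, where the fit of the contrast's own groups also called 1. For the 62 pathway genes the fit of the contrast's own groups called 38 in OVA vs PBS short (25 in the main fit), 6 in OVA vs PBS long and 24 for the OVA effect. Array weights called 11 in OVA vs PBS long, 3 in MCh vs PBS short, 2 in MCh vs PBS long, 14 in PBS long vs short and 26 for the OVA effect. Without the 3 sparse libraries 1, 2 and 7 were called in OVA vs PBS long, PBS long vs short and the OVA effect, and quantile normalization called 1 and 2 in the last pair. With the length trend removed 3 were called for the OVA effect. With 1 library left out the counts were 12 to 29 in OVA vs PBS short, 0 to 1 in OVA vs PBS long, 0 to 2 in MCh vs PBS long, 0 to 1 in PBS long vs short and 1 to 12 for the OVA effect. The share of all genes called is given for the main fit only. Counts under the alternatives, left-out libraries included, thus have no background beside them and do not show a change particular to these genes. The cause of these moves was not tested. The replicate block, fitted on the 14 numbered libraries, called 0 of the 5 genes and 18 of the 62 in OVA vs PBS short, with adjusted p of 0.124 for Bax and 0.0924 for Rpl22. The same libraries without it, an alternative chosen after seeing the data, called 24 of the 62 and 1 of the 5, which was Ccng1 (0.029) and not Bax (0.0533). Deviations from the group mean correlated at -0.30 to 0.38 between 19 same-numbered pairs and at -0.37 to 0.43 between 54 others, and 4 of 14 libraries correlated best with one of their own number, so the numbers were not taken as pairs. Mdm4 had 4 groups with a 4-fold gap after quantile normalization, as long OVA reached 2.01, and 3 under the other 4 settings tried. FPKM without counts leave the depth behind each value unknown.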
